A study of Homo sapiens with 12 samples.

Results

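The matrix metalloproteinases (MMP), the ADAMTS proteinases and their tissue inhibitors (TIMP) were followed through 2 human glioma cell lines, U251 and U87. Members were the protein-coding genes whose symbol is MMP, ADAMTS or TIMP followed by a number, which gave 22 MMP, 19 ADAMTS and 4 TIMP genes, 45 of the 58302 genes listed. The 4 groups, of 3 polyadenylated RNA libraries each, were U251 after 24 h of artesunate at 180 µM, U251 controls, U87 after 24 h of artesunate at 24.08 µM and U87 controls. All samples were labelled day 9. The controls were labelled with 10%DMEM, and a solvent in the controls was not stated. Because each line had its own dose, line and dose cannot be told apart. The labels name artesunate, the water-soluble derivative of the antimalarial artemisinin, while their extraction text names artemisinin. Both are established lines, so each group describes 1 line, and the labels do not say whether replicates were separate cultures. P-values therefore measure the spread between these libraries, which may be technical.

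MMPs are zinc endopeptidases that cut collagens, laminins, other matrix proteins and cell-surface proteins. They are made as inactive precursors whose propeptide is removed outside the cell or, for those with a furin site, on the way to the surface. ADAMTS proteinases are secreted relatives with thrombospondin repeats that cleave large proteoglycans such as versican and brevican, trim procollagens or process other matrix glycoproteins. TIMPs bind the active site of these enzymes. In gliomas the system is known for remodelling the hyaluronan- and proteoglycan-rich brain matrix along which the tumour cells migrate.

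Library totals ran from 13631985 to 17314284 counts, so that 3 counts, taken as the floor, were 0.173 to 0.22 CPM (counts per 1000000 counts of the library). Libraries of 1 group correlated across genes with Pearson's r of 0.985 to 0.986 in U251 artesunate and 0.972 to 0.981 in U87 artesunate, against 0.985 to 0.986 in U251 controls and 0.986 to 0.987 in U87 controls. The astrocyte and glioma markers summed to 5118 to 5815 CPM in U251 artesunate against 5265 to 7166 CPM in U251 controls, and to 5484 to 7029.9 CPM in U87 artesunate against 6496 to 6926 CPM in U87 controls. VIM and CD44 made up most of these sums. NES had 10.1 to 14.2 CPM in U87 artesunate against 65.8 to 77 CPM in U87 controls. In the other direction, OLIG2 had 6.27 to 8.66 CPM in U87 artesunate against 2.27 to 3.75 CPM in U87 controls. AQP4 had 0 counts in all 12 libraries, GFAP reached 1.91 CPM at most in U87, and SOX2 had 0 counts in every U87 library.

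Of the 45 members, 33 carried enough counts to be tested. The 12 others comprised 11 members under 10 counts in every library (ADAMTS2, ADAMTS17, ADAMTS19, ADAMTS20, MMP8, MMP9, MMP13, MMP20, MMP21, MMP26 and MMP27) and MMP25, whose highest count was 11. ADAMTS2, MMP20, MMP21 and MMP26 had 0 counts in all 12 libraries, which allows up to 3 counts in each. MMP9 (gelatinase B, chr20:46008908-46016561, GRCh38), a gelatinase much studied in glioma, belonged to this group of nearly silent genes. It had 0, 0 and 3 counts in U87 artesunate against 5, 2 and 0 counts in U87 controls, and 0 counts in all 6 U251 libraries. No effect on MMP9 was detectable at this depth.

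Per transcript length, a few members held most of the family's RNA. In U87 artesunate the authors' FPKM (fragments per kilobase of transcript, scaled to library depth) put TIMP1 first (198 ± 21.9), then MMP3 (169 ± 23), MMP2 (164 ± 2.33), MMP14 (100.2 ± 21.1) and TIMP4 (33.7 ± 3.29; all SD, n = 3). The order in U87 controls was MMP2 (189 ± 9.83), TIMP1 (164 ± 3.61), MMP3 (129 ± 1.96), MMP14 (101 ± 8.5) and TIMP4 (27.2 ± 0.685). In U87 artesunate the MMP2 levels of 161 to 166 FPKM lay inside the MMP3 range of 142 to 182 FPKM, and the MMP3 and TIMP1 ranges overlapped. The place of MMP3 was therefore not separated by the libraries, while TIMP1 (173 to 212 FPKM) lay above MMP2 in all of them. In U87 controls no neighbours among the first 5 overlapped.

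In U251 TIMP1 was in front in both groups, and MMP2, MMP3, MMP14 and TIMP1 lay far below their U87 levels. TIMP1 led U251 artesunate with 42.4 ± 2.27 FPKM, followed by TIMP2 (25.9 ± 24.3), MMP14 (19.4 ± 4.01), MMP2 (11.1 ± 1.1) and ADAMTS9 (4.96 ± 0.112). TIMP1 led U251 controls too with 43.2 ± 0.664 FPKM, followed by MMP14 (16.6 ± 1.43), TIMP2 (11.4 ± 0.277), MMP2 (8.49 ± 0.131) and ADAMTS9 (6.31 ± 0.811). The TIMP2 range in U251 artesunate, 9.9 to 53.9 FPKM, enclosed the levels of MMP14 in the same libraries. Summed over the family, the MMP genes reached 38.6 ± 5.12 FPKM in U251 artesunate against 32.8 ± 1.2 FPKM in U251 controls, and 445 ± 4.43 FPKM in U87 artesunate against 430.4 ± 18.7 FPKM in U87 controls. The sums of U251 and U87 libraries did not overlap, with or without artesunate. The number of members with a mean of at least 1 FPKM was 11 in U251 artesunate against 12 in U251 controls, and 15 in U87 artesunate against 21 in U87 controls.

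**Figure D1:**
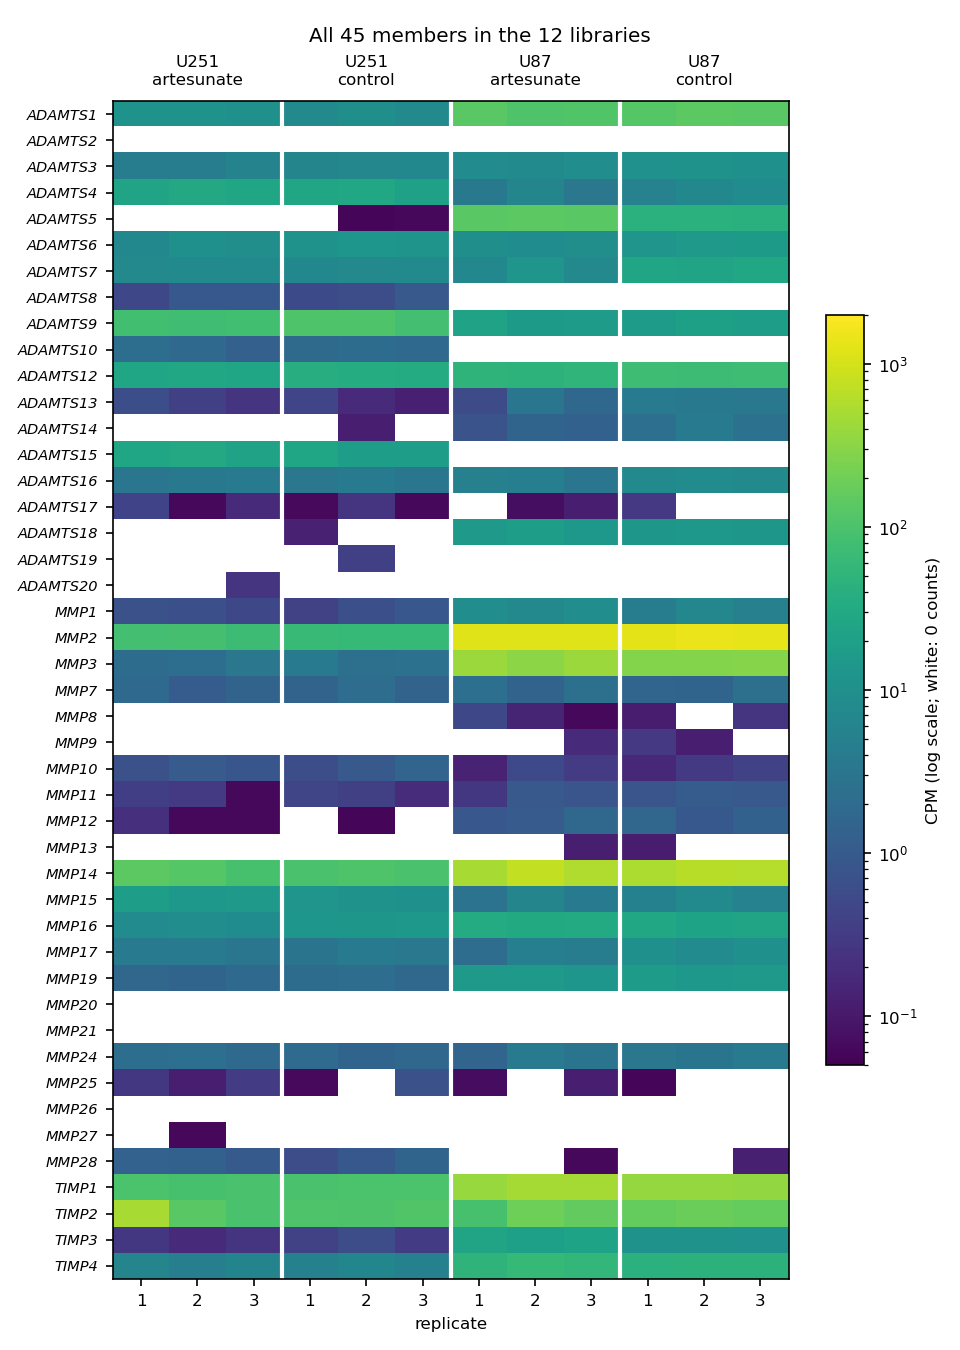
CPM of all 45 members (rows) in the 12 libraries (columns, by group and replicate) on a logarithmic colour scale, with white for 0 counts. ADAMTS8, ADAMTS10 and ADAMTS15 are white in all 6 U87 libraries, and ADAMTS5 is near 0 in U251 and above 40 CPM in every U87 library.

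In U87 a smaller share of the tested members than of all tested genes was called with artesunate. Of the 33 tested members 7 rose (TIMP1, TIMP3, TIMP4, ADAMTS5, MMP1, MMP3 and MMP16) and 7 fell (ADAMTS4, ADAMTS6, ADAMTS7, ADAMTS12, ADAMTS14, ADAMTS16 and MMP17), with edgeR's quasi-likelihood test and a Benjamini-Hochberg adjusted p under 0.05 over 17150 genes. The called share was 42.4% of the tested members. Over all tested genes 29.2% rose and 29.2% fell (58.3% in all). The median log2 fold change was -0.10 over the 29 members above the floor and 0.00 over all tested genes. In bulk libraries scaled to their totals, fewer cells of a kind and less RNA per cell cannot be told apart.

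The U87 fold changes moved with the base composition of the transcripts. Across 17089 genes the U87 log2 fold change had a Spearman correlation of -0.628 with the GC content of the longest transcript, a description across genes that share libraries. The 7 members that rose had a median GC content of 44.8% (36.4% to 57.9%), and the 7 that fell had one of 54.3% (42.5% to 68.7%), where the 33 tested members had one of 53.7% (36.4% to 68.7%). In each U87 artesunate library taken alone the correlation was between -0.648 and -0.522. A fit with a GC and length correction for each library called 9 members higher and 4 lower, where 26.3% of all genes rose and 19.9% fell (46.2% in all). TIMP1, TIMP3, TIMP4, ADAMTS5, ADAMTS6 and ADAMTS12 were called in the same direction by both fits. For this and later counts of members called by both fits, the matching share over all genes is not given here. For members called in U87 by either fit, the corrected value is given beside the result. Whether GC content produced the other calls was not tested.

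**Figure D2:**
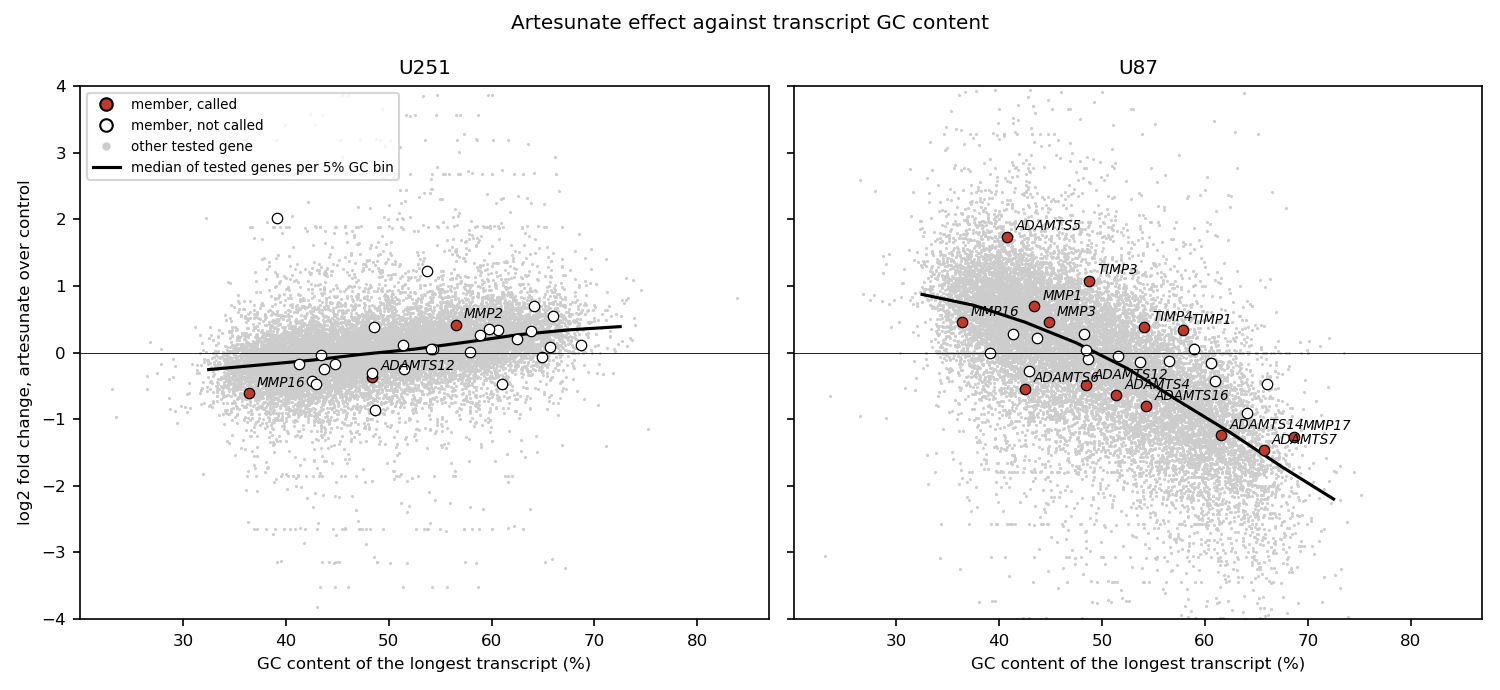
The log2 fold change, artesunate over control, of each tested gene against the GC content of its longest transcript (%), with members as large points and the median of all tested genes per 5% of GC as a line. The vertical axis stops at 4 on either side, leaving out 39 genes in U251 and 102 in U87. In U87 the line falls with GC content, ADAMTS7 and MMP17 lie close to it or above it, and ADAMTS5, TIMP1 and TIMP3 lie well above it.

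TIMP1, TIMP3 and TIMP4, but not TIMP2, were called higher in U87. TIMP3 (ENSG00000100234, chr22:32801701-32863043, plus strand) stays bound to the matrix and inhibits several ADAM and ADAMTS enzymes besides MMPs. It had 24.4, 19.6 and 23.4 CPM in U87 artesunate, against 11.3, 11.7 and 10.6 CPM in U87 controls. Every artesunate library lay above every control, and the log2 fold change was 1.08 ± 0.16 (SE; adjusted p = 0.00013, edgeR) or 1.06 with the GC correction. TIMP1 (chrX:47582313-47586789, plus strand), a secreted inhibitor that also binds the MMP9 precursor, had 391, 479 and 474 CPM in U87 artesunate, against 378, 374 and 363 CPM in U87 controls. The groups did not overlap, although the first artesunate library lay near the highest control. The log2 fold change of TIMP1 was 0.34 ± 0.08 (adjusted p = 0.0028) and became 1.34 with the GC correction.

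TIMP4 (chr3:12153051-12159351, minus strand), a secreted inhibitor with a narrower tissue distribution, had 50, 60.8 and 56.2 CPM in U87 artesunate, against 43.8, 46.1 and 44.8 CPM in U87 controls. All 3 artesunate libraries were the higher ones, with a log2 fold change of 0.38 ± 0.12 (adjusted p = 0.015; 0.84 with the GC correction). The call was lost without U87 artesunate replicate 3 (adjusted p = 0.06), control replicate 1 (0.052) or control replicate 3 (0.069). TIMP2 (chr17:78852977-78925387, minus strand) joins MMP14 at the cell surface in the complex that activates the MMP2 precursor. It had 92.6, 192 and 159.8 CPM in U87 artesunate, against 164, 184 and 164 CPM in U87 controls. These ranges overlapped, with the first artesunate library lowest, and the log2 fold change of -0.14 ± 0.49 was not called (adjusted p = 0.84).

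**Figure D3:**
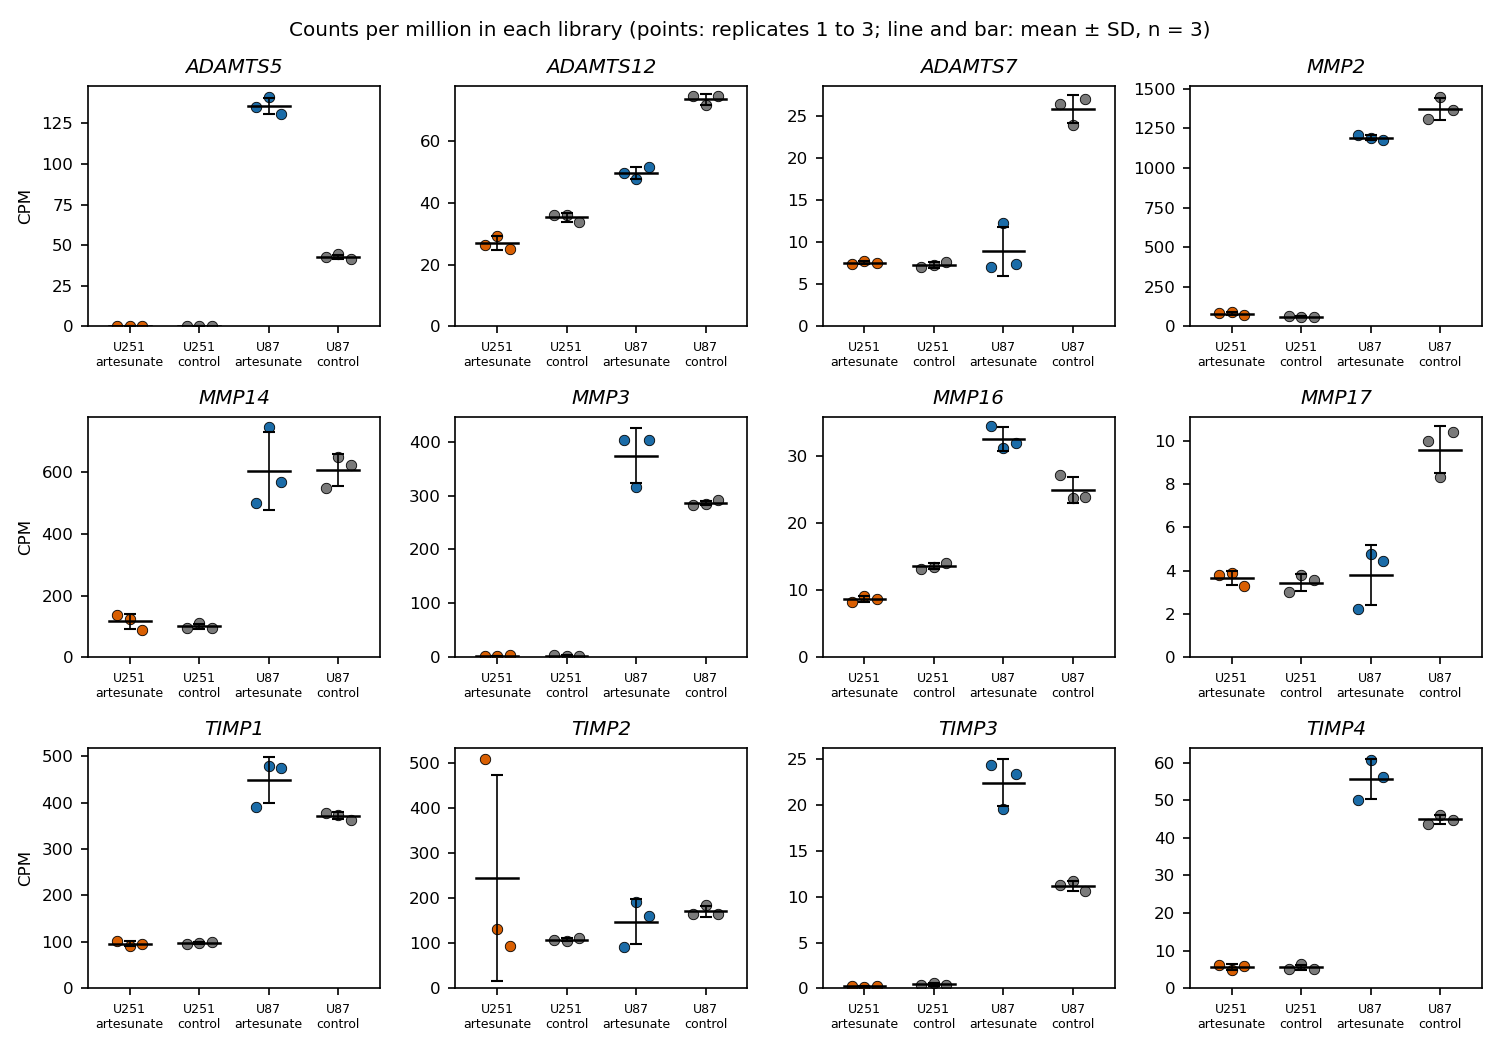
CPM of 12 members in each library (points, replicates 1 to 3 from left to right) by group, with the mean and SD of 3 libraries as a line and bar; each panel has its own linear axis from 0. ADAMTS5 reaches 131 to 141 CPM in U87 artesunate against 41.5 to 44.3 CPM in U87 controls, and the 509 CPM of TIMP2 in the first U251 artesunate library stands apart.

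ADAMTS5 had the highest U87 log2 fold change in the fit to counts, while TIMP1 had the highest called value with the GC correction. ADAMTS5 (aggrecanase 2, ENSG00000154736, chr21:26917912-26966513, minus strand) cleaves aggrecan and versican. It had 135, 141 and 131 CPM in U87 artesunate, against 42.6, 44.3 and 41.5 CPM in U87 controls. The groups were far apart, with a log2 fold change of 1.74 ± 0.11 (adjusted p = 1.3e-06, edgeR), or 1.26 with the GC correction. ADAMTS1 (chr21:26835747-26845409, minus strand), another proteoglycan-cleaving enzyme, is its direct neighbour, 72502 bases away with no protein-coding gene between them. ADAMTS1 had 131, 107 and 112 CPM in U87 artesunate, against 122, 138 and 135 CPM in U87 controls. Its groups overlapped and the log2 fold change of -0.10 ± 0.12 was not called (adjusted p = 0.47).

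ADAMTS4 (aggrecanase 1, chr1:161184308-161199056) had 3.62, 6.09 and 3.35 CPM in U87 artesunate, against 5.54, 7.05 and 8.62 CPM in U87 controls. The second artesunate library lay inside the control range. The log2 fold change was -0.64 ± 0.23 (adjusted p = 0.034), and -0.30 without a call with the GC correction (adjusted p = 0.23). Its call was also lost without U87 artesunate replicate 1 (adjusted p = 0.11) or 3 (0.13) and without U87 control replicate 2 (0.073) or 3 (0.12). ADAMTS9, a widely expressed proteoglycan-cleaving enzyme, had 18.7 ± 3.53 CPM in U87 artesunate and 19.1 ± 1.55 CPM in U87 controls (SD, n = 3 each) and was not called.

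ADAMTS12 and ADAMTS7 form the pair of ADAMTS enzymes known to cleave cartilage oligomeric matrix protein. ADAMTS12 (chr5:33523535-33892192, minus strand) had 49.7, 47.6 and 51.4 CPM in U87 artesunate, against 74.5, 71.5 and 74.5 CPM in U87 controls. All artesunate libraries were lower, with a log2 fold change of -0.49 ± 0.09 (adjusted p = 0.00046; -0.38 with the GC correction). ADAMTS7 (chr15:78759203-78811431, minus strand) had 7.04, 12.3 and 7.38 CPM in U87 artesunate, against 26.5, 24 and 27.1 CPM in U87 controls. Its groups were also far apart, with a log2 fold change of -1.47 ± 0.18 (adjusted p = 2.4e-05). With the GC correction that value became 0.13 without a call (adjusted p = 0.43), at a transcript GC content of 65.7%. ADAMTS7 overlaps MORF4L1 on the other strand and has pseudogene copies among the listed genes. The strandedness of the counting was not stated, so its counts are uncertain.

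Of the remaining ADAMTS members called in U87, ADAMTS6 resembles the fibrillin-binding ADAMTS10 in sequence. It had 9.96, 8.73 and 9.36 CPM in U87 artesunate, against 12.5, 14.8 and 15.9 CPM in U87 controls. No library overlapped, and the log2 fold change was -0.54 ± 0.16 (adjusted p = 0.012), or -1.02 with the GC correction. ADAMTS16 had 5.15, 4.77 and 3.16 CPM in U87 artesunate, against 7.85, 8.15 and 7.97 CPM in U87 controls. Every artesunate library was lower, with a log2 fold change of -0.80 ± 0.19 (adjusted p = 0.0029), which was -0.32 and not called with the GC correction (adjusted p = 0.19).

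ADAMTS14 and ADAMTS3 remove the amino-terminal propeptide of fibrillar procollagens. ADAMTS14 had 0.766, 1.54 and 1.36 CPM in U87 artesunate, against 2.43, 4.11 and 2.57 CPM in U87 controls, and no library overlapped. Its log2 fold change of -1.24 ± 0.42 (adjusted p = 0.028) was -0.04 with the GC correction, and the call was lost without U87 artesunate replicate 1 (adjusted p = 0.092), artesunate replicate 3 (0.053) or control replicate 2 (0.12). ADAMTS3 had 8.22, 7.85 and 9.17 CPM in U87 artesunate, against 10.5, 11.3 and 10.3 CPM in U87 controls. These ranges did not overlap either, but the log2 fold change of -0.27 ± 0.14 was not called (adjusted p = 0.13), whereas the GC correction gave -0.71 (adjusted p = 0.00086). ADAMTS13, the protease of von Willebrand factor, had 0.557, 3.23 and 1.8 CPM in U87 artesunate against 3.81, 3.62 and 3.41 CPM in U87 controls, without overlap, and was not called (log2 fold change -0.90 ± 0.47, adjusted p = 0.12). Its value was -1.51 without U87 artesunate replicate 2 (adjusted p = 0.017) and turned to 0.45 with the GC correction (adjusted p = 0.36). ADAMTS18 was not called, with 16 ± 1.98 CPM in U87 artesunate and 13.9 ± 0.458 CPM in U87 controls.

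**Figure D4:**
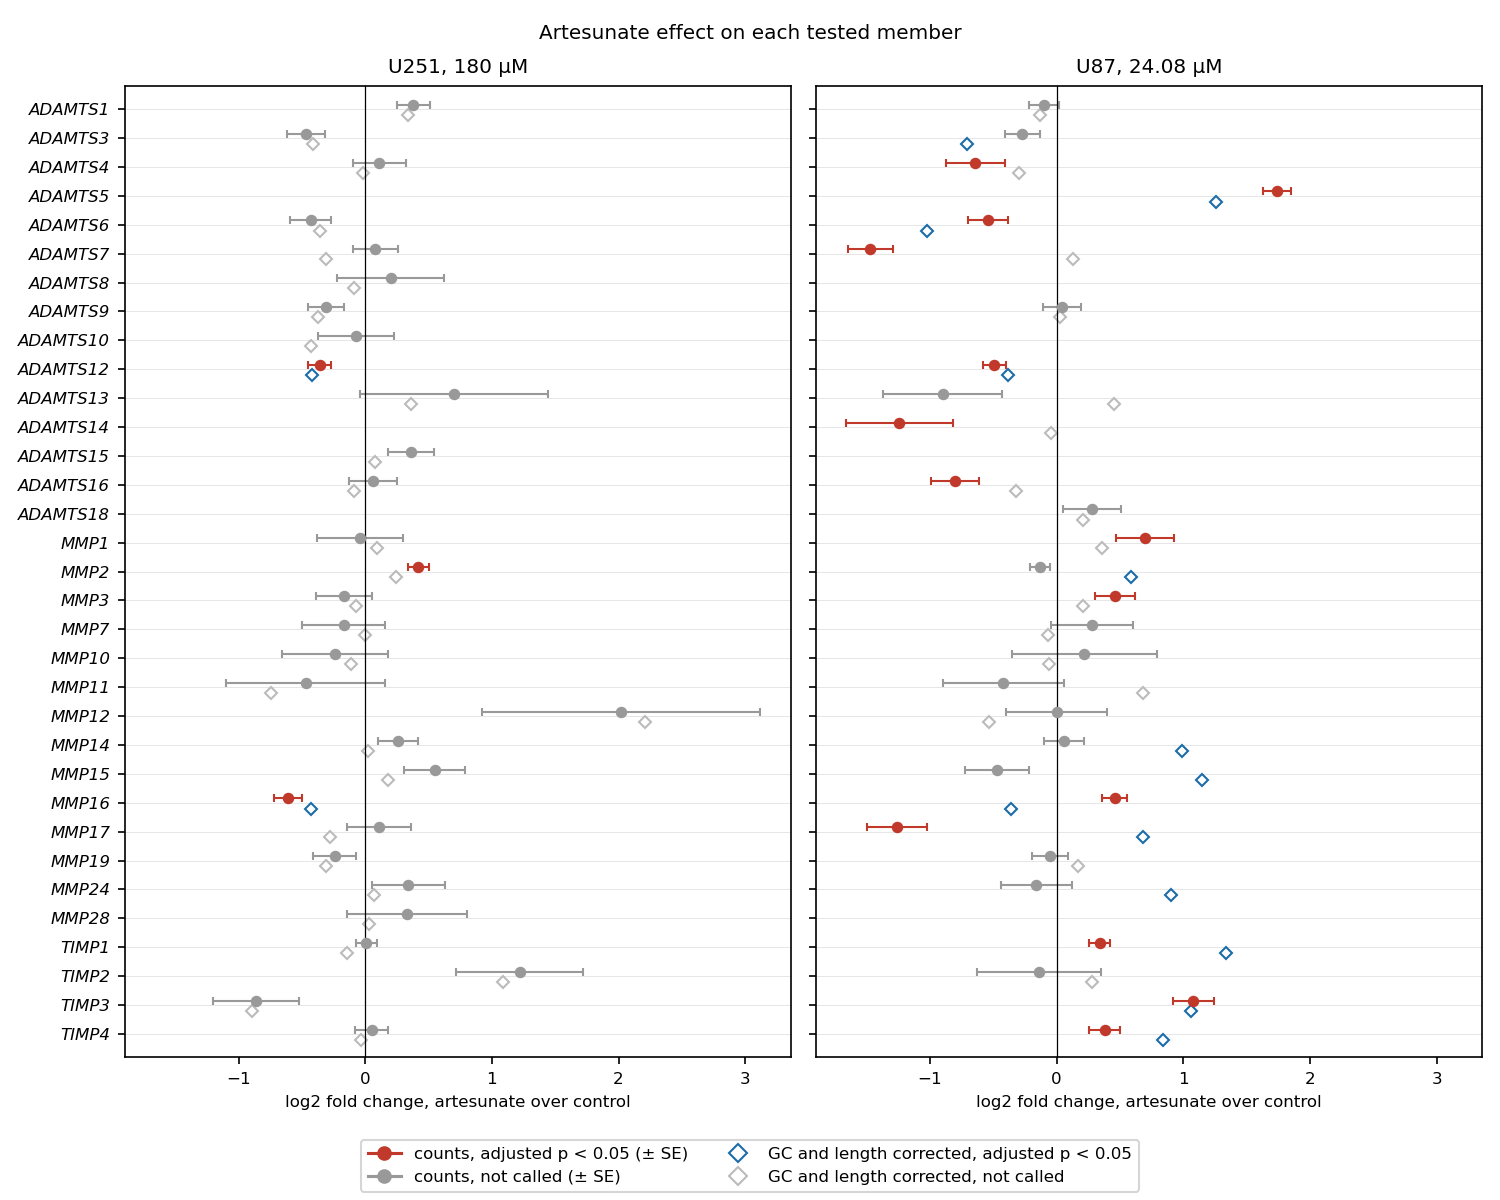
The log2 fold change, artesunate over control, of each tested member in U251 and U87; filled circles with bars are the fit to counts ± SE, open diamonds the fit with GC and length correction, and colour marks an adjusted p under 0.05. Members with both groups at or under 3 counts are left out, and MMP12 in U251 rests on 5 and 1 counts. In U87 the diamonds of ADAMTS7, MMP2, MMP15, MMP16, MMP17 and MMP24, each called by at least 1 fit, lie on the other side of 0 from their circles, as do those of the uncalled ADAMTS13, MMP7, MMP10, MMP11, MMP19 and TIMP2.

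Among the MMPs, the collagenase MMP1 and the stromelysin MMP3 rose in U87. MMP3 (chr11:102835801-102843803, minus strand), which cuts many matrix proteins and activates other MMP precursors, had 403, 315 and 403 CPM in U87 artesunate, against 283, 285 and 291 CPM in U87 controls. The artesunate libraries were all higher and more widely spread than the controls. The log2 fold change was 0.46 ± 0.16 (adjusted p = 0.025), and 0.21 with the GC correction (adjusted p = 0.25). MMP1 (interstitial collagenase, chr11:102789920-102798160, minus strand) had 8.85, 7.34 and 8.86 CPM in U87 artesunate, against 4.5, 6.62 and 5.08 CPM in U87 controls. Its groups did not overlap, and the log2 fold change of 0.70 ± 0.23 (adjusted p = 0.019) was 0.36 with the GC correction (adjusted p = 0.19).

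Both calls depended on single libraries. The MMP1 call was lost without U87 artesunate replicate 1 (adjusted p = 0.056), artesunate replicate 3 (0.065), control replicate 1 (0.076) or control replicate 3 (0.073). The MMP3 call was lost without artesunate replicate 1 (0.081) or 3 (0.096), and without control replicate 1 (0.066), 2 (0.065) or 3 (0.074).

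MMP1 and MMP3 belong to a run of 9 members on chromosome 11 (chr11:102520508-102955734) in the order MMP7, MMP20, MMP27, MMP8, MMP10, MMP1, MMP3, MMP12 and MMP13. Of these, 5 were tested. MMP7, matrilysin, had 2.13 ± 0.577 CPM in U87 artesunate and 1.87 ± 0.556 CPM in U87 controls. MMP10, a second stromelysin, had 0.321 ± 0.187 CPM in U87 artesunate and 0.289 ± 0.107 CPM in U87 controls, and MMP12, the macrophage elastase, had 1.24 ± 0.484 CPM in U87 artesunate and 1.31 ± 0.379 CPM in U87 controls (SD, n = 3 each). None of MMP7, MMP10 and MMP12 was called in either artesunate comparison, and MMP8 and MMP13, the other collagenases, stayed under 10 counts. Within this run of genes MMP3 alone exceeded 10 CPM in any group.

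Promoters of the members were searched for the letters of an AP-1 element, the target of the FOS and JUN dimer known to drive collagenase and stromelysin promoters. RefSeq promoter windows (GRCh38.p14) were at hand for 26 members, with 27 windows, but not for MMP1, MMP3, MMP12 or MMP13, which were not searched. The 250 bases before each RefSeq start were searched on both strands. The TIMP1 and ADAMTS12 stretches below lie before that start but inside the gene spans given above. TGANTCA was found in 4 of the 27 windows (14.8%), those of MMP7, MMP10, MMP20 and ADAMTS12, against 6.57% of 35116 windows of all genes. The ETS-type element CAGGAAG was found in 4 windows (14.8%), those of TIMP1, MMP7, ADAMTS10 and ADAMTS13, against 10.5% of all windows. The windows of the 4 members below are shown because they hold such a match. MMP7 and MMP10 lie in the same gene run without being neighbours. Their AP-1 matches start at the same base, -67 from the start, while that of MMP20 between them starts at -112. TIMP1 and ADAMTS12 are the members called in U87 that hold a match. Capitals mark the match, AP-1 in MMP7, MMP10 and ADAMTS12 and ETS in TIMP1. A match is a description of letters, not of a bound site.
MMP7, chr11:102530754-102530873, minus strand: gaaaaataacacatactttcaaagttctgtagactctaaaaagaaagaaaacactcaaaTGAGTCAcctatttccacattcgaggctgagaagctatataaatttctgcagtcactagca
MMP10, chr11:102780629-102780748, minus strand: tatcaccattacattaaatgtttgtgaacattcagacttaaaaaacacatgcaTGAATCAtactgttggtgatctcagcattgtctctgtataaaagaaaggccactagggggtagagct
ADAMTS12, chr5:33892056-33892085, minus strand: acactgtcagcTGAATCActccccttttag
TIMP1, chrX:47582337-47582366, plus strand: agtaatgcatcCAGGAAGcctggaggcctg

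For the gelatinase MMP2 and the membrane-type MMPs the U87 result also depended on the GC correction. MMP2 (gelatinase A, ENSG00000087245, chr16:55389700-55506691, plus strand) had 1209, 1193 and 1175 CPM in U87 artesunate, against 1307, 1449 and 1367 CPM in U87 controls. Each artesunate library was lower than each control, yet the log2 fold change of -0.13 ± 0.08 was not called (adjusted p = 0.19), and with the GC correction it was 0.59 (adjusted p = 0.00065). MMP14 (chr14:22836557-22849027, plus strand), the membrane collagenase that activates the MMP2 precursor, had 499, 745 and 566 CPM in U87 artesunate, against 549, 647 and 623 CPM in U87 controls. Its artesunate libraries enclosed the controls, with a log2 fold change of 0.06 ± 0.16 (adjusted p = 0.78) or 0.99 with the GC correction (adjusted p = 3.0e-05).

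MMP16, a transmembrane MMP, had 34.5, 31.2 and 31.9 CPM in U87 artesunate, against 27.1, 23.8 and 23.9 CPM in U87 controls. The groups were separate, with a log2 fold change of 0.46 ± 0.10 (adjusted p = 0.0022). At 36.4% the MMP16 transcript had the lowest GC content of the tested members. With the GC correction the same contrast was called in the other direction at -0.36 (adjusted p = 0.01). MMP17, anchored by a glycolipid, had 2.23, 4.77 and 4.46 CPM in U87 artesunate, against 10, 8.34 and 10.4 CPM in U87 controls. These groups did not overlap and the log2 fold change was -1.26 ± 0.24 (adjusted p = 0.00072). At 68.7% MMP17 had the highest GC content of the tested members, and its corrected value was called in the other direction at 0.68 (adjusted p = 0.03). No direction for MMP16 or MMP17 in U87 therefore held under both fits.

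MMP15, another transmembrane MMP, had 2.86, 6.09 and 3.84 CPM in U87 artesunate, against 5.26, 7.85 and 5.4 CPM in U87 controls. The ranges overlapped through the second artesunate library, and the log2 fold change of -0.47 ± 0.25 was not called (adjusted p = 0.13). It was -0.79 without that library (adjusted p = 0.014) and 1.15 with the GC correction (adjusted p = 0.0002). MMP24, a membrane-type MMP of neural tissue that overlaps MMP24OS on the other strand, had 2.9 ± 1.25 CPM in U87 artesunate and 3.38 ± 0.334 CPM in U87 controls (log2 fold change -0.16 ± 0.28, adjusted p = 0.66; 0.90 with the GC correction, adjusted p = 0.0047). MMP19 and MMP11 were not called, with 14.4 ± 1.12 and 0.679 ± 0.355 CPM in U87 artesunate against 15.7 ± 1.65 and 0.959 ± 0.147 CPM in U87 controls.

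In U251 few members were called. Of the 33 tested, MMP2 rose, MMP16 and ADAMTS12 fell, and 30 were not called, which made 9.09% called. Over all tested genes 4.09% rose and 4.26% fell, 8.34% in all. The median log2 fold change was 0.06 over the 30 members above the floor, against 0.00 over all tested genes. The relation to GC content ran the other way in U251, with a Spearman correlation of 0.412 across 17089 genes, and of 0.236 to 0.430 in the single artesunate libraries. With the GC correction no member was called higher (4.3% of all genes were) and MMP16 and ADAMTS12 remained the members called lower (4.26% of all genes were, and 8.56% were called in all).

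MMP2 had 82.6, 87.5 and 71.9 CPM in U251 artesunate, against 62.9, 61.2 and 61.3 CPM in U251 controls. Every artesunate library was higher, with a log2 fold change of 0.42 ± 0.08 (adjusted p = 0.011), or 0.24 without a call with the GC correction (adjusted p = 0.19). MMP16 had 8.29, 9.12 and 8.65 CPM in U251 artesunate, against 13.2, 13.4 and 14.1 CPM in U251 controls. The groups were clearly apart, with a log2 fold change of -0.61 ± 0.11 (adjusted p = 0.0053) that was -0.43 with the GC correction (adjusted p = 0.026). ADAMTS12 had 26.3, 29.3 and 25.1 CPM in U251 artesunate, against 36.1, 36 and 33.6 CPM in U251 controls. All artesunate libraries were lower here as in U87, with a log2 fold change of -0.36 ± 0.09 (adjusted p = 0.033; -0.42 with the GC correction). The ADAMTS12 call in U251 was lost without U251 artesunate replicate 1 (adjusted p = 0.1) or 3 (0.1), U251 control replicate 1 (0.1) or 2 (0.097), or U87 control replicate 3 (0.054).

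The inhibitors were not called in U251. TIMP1 had 101, 90.7 and 95.7 CPM in U251 artesunate, against 96.3, 97.6 and 99.3 CPM in U251 controls. Those values overlapped, with a log2 fold change of 0.01 ± 0.08. TIMP2 had 509, 132 and 93.5 CPM in U251 artesunate, against 107, 105 and 111 CPM in U251 controls. The first artesunate library, with 7246 counts, stood apart from the other 5, and the log2 fold change of 1.22 ± 0.50 was not called (adjusted p = 0.16). TIMP3 had few counts, with 4, 3 and 4 counts in U251 artesunate against 6, 10 and 5 counts in U251 controls. From the summed counts of 11 and 21 the control level was 1.89 times the artesunate level, with a 95% exact interval of 0.872 to 4.34 that covers counting error only. TIMP4 had 5.68 ± 0.821 CPM in U251 artesunate and 5.61 ± 0.72 CPM in U251 controls.

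Among the matrix-cutting enzymes not called in U251, MMP14 had 137, 123 and 89.8 CPM in U251 artesunate, against 94.9, 110.1 and 95.5 CPM in U251 controls. The third artesunate library lay under every control, and the log2 fold change was 0.26 ± 0.16 (adjusted p = 0.38). ADAMTS1 had 11.2, 11.1 and 10.2 CPM in U251 artesunate, against 7.8, 9.94 and 7.79 CPM in U251 controls. Its groups did not overlap, but the log2 fold change of 0.38 ± 0.13 missed the threshold (adjusted p = 0.099). ADAMTS9, with the highest mean FPKM of the ADAMTS genes in each U251 group, had 79.5, 77.1 and 80.6 CPM in U251 artesunate, against 107, 109 and 85.8 CPM in U251 controls (log2 fold change -0.31 ± 0.14, adjusted p = 0.2). In U251 artesunate its 4.84 to 5.06 FPKM lay inside the ADAMTS15 range of 3.93 to 5.36 FPKM, so that order was not separated. MMP15 had 18.7, 14 and 15.4 CPM in U251 artesunate, against 12.5, 11 and 10.1 CPM in U251 controls (0.55 ± 0.24, adjusted p = 0.19). For ADAMTS9 and MMP15, as for ADAMTS1, the artesunate and control ranges did not overlap while the test was not passed. ADAMTS3 had 4.76 ± 0.806 CPM in U251 artesunate and 6.76 ± 0.453 CPM in U251 controls, with a log2 fold change of -0.47 ± 0.15 (adjusted p = 0.076) that was called without U251 artesunate replicate 3 (-0.61, adjusted p = 0.047).

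The effects of artesunate in U251 and U87 were then compared by an interaction term, U251 minus U87. The difference was called higher for 6 members (ADAMTS1, ADAMTS7, ADAMTS16, MMP2, MMP15 and MMP17) and lower for 4 (ADAMTS5, MMP16, TIMP1 and TIMP3), 30.3% of the tested members. Over all tested genes it was called higher for 24.1% and lower for 25.3%, 49.4% in all. TIMP3 had a difference of -1.94 ± 0.38 (adjusted p = 0.0013), and -1.95 with the GC correction (adjusted p = 0.0021). TIMP1 had one of -0.33 ± 0.11 (adjusted p = 0.026), and -1.48 with the GC correction. The inhibitors TIMP1 and TIMP3 kept their direction in both fits, but the TIMP1 call was lost without U251 artesunate replicate 2 or 3, any U251 control, U87 artesunate replicate 3 or U87 control replicate 3 (adjusted p 0.053 to 0.1).

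For most of the enzymes the difference depended on the GC correction, and GC content correlated with the difference at 0.682 (Spearman) across 17089 genes. MMP16 had a difference of -1.07 ± 0.15 (adjusted p = 0.00012), with opposite calls in the 2 lines in the fit to counts, and -0.07 with the GC correction (adjusted p = 0.78). ADAMTS7 had 1.55 ± 0.25 (adjusted p = 0.00036), and -0.43 with the GC correction. ADAMTS16 had 0.87 ± 0.27 (adjusted p = 0.019), and 0.23 without a call with the GC correction (adjusted p = 0.58). For MMP2, MMP15 and MMP17 the differences of 0.55 ± 0.12, 1.02 ± 0.35 and 1.37 ± 0.34 became -0.35, -0.97 and -0.96 with the GC correction. In that fit 2 members were called higher and 6 lower, where 12.7% and 17.6% of all genes were, and 3 of the 10 members called without the correction were called in the same direction. ADAMTS1 was the enzyme among them, with 0.49 ± 0.18 (adjusted p = 0.038) and 0.47 with the GC correction (adjusted p = 0.047). The ADAMTS1 call was lost without U251 artesunate replicate 1 or 2, U251 control replicate 1 or 3, U87 artesunate replicate 2 or 3 or U87 control replicate 2 (adjusted p 0.055 to 0.087). The MMP15 call was lost without U251 artesunate replicate 1, U251 control replicate 2 or 3, U87 artesunate replicate 1 or 3 or U87 control replicate 2 (0.058 to 0.087). Without single libraries the difference was also called for ADAMTS4 (1.03, adjusted p = 0.0071, without U87 artesunate replicate 2), ADAMTS13 (2.20, adjusted p = 0.038, without the same library), MMP3 (-0.85, adjusted p = 0.023, without U251 artesunate replicate 3) and TIMP2 (1.76, adjusted p = 0.028, without that library). ADAMTS5 had an adjusted p of 0.035 for the difference, but with 0 counts in U251 artesunate and 2 in U251 controls it allows no fold in U251. That call was lost with the GC correction (adjusted p = 0.087) and without U251 artesunate replicate 1 (0.064), 2 (0.07) or 3 (0.068) or U251 control replicate 2 (0.11) or 3 (0.11).

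The lines themselves differed in nearly every tested member. Between the control groups 8 members were higher in U251 and 22 lower, 90.9% of the 33 tested, against 32.5% and 32.3% of all tested genes, 64.8% in all. The median log2 difference, U251 minus U87, was -1.45 over the members, also with the 3 members at 0 in U87 set to their lower bound, and 0.00 over all tested genes. ADAMTS5, ADAMTS8, ADAMTS10, ADAMTS13, ADAMTS14, ADAMTS15, ADAMTS18, MMP12 and MMP28 had at most 12 summed counts in 1 of the control groups. They passed the count filter only through the other line, so a difference was built into their being tested. The called share and the median include them, and the share of such genes over all tested genes is not given here. MMP11 and MMP24 lost their calls without single control libraries (adjusted p up to 0.11 and 0.057). With the GC correction 8 were higher and 21 lower, where 33.6% and 32.4% of all genes were (66% in all). Both fits called 28 members in the same direction. Culture history, passage and other differences between the lines cannot be told apart from the line.

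MMP2, MMP3 and most of the other MMPs were lower in U251, while MMP10 (1.88 ± 0.48) and MMP15 (0.88 ± 0.24) were among those higher there. MMP2 had 62.9, 61.2 and 61.3 CPM in U251 controls, against 1307, 1449 and 1367 CPM in U87 controls, a log2 difference of -4.45 ± 0.10 (adjusted p = 1.5e-11). MMP3 had 3.93, 2.52 and 2.66 CPM in U251 controls, against 283, 285 and 291 CPM in U87 controls (-6.54 ± 0.21, adjusted p = 2.5e-10). All U251 libraries were far below all U87 libraries for both genes. MMP14 differed by -2.57 ± 0.17, MMP1 by -3.00 ± 0.28, MMP19 by -2.93 ± 0.16, MMP17 by -1.45 and MMP16 by -0.85. All 4 inhibitors had lower values in U251, by -4.61 ± 0.22 for TIMP3, -2.97 ± 0.13 for TIMP4 and -1.90 ± 0.08 for TIMP1, while TIMP2 (-0.64 ± 0.49, adjusted p = 0.27) was not called. The uncalled TIMP2 difference rested on 1 library: without U251 artesunate replicate 1, which enters the common estimate of spread, its adjusted p was 0.024.

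The ADAMTS genes split between the lines. ADAMTS15, a proteoglycan-cleaving enzyme (chr11:130448974-130476641, plus strand), had 25.2, 19.1 and 19.2 CPM in U251 controls and 0 counts in all 6 U87 libraries, at least 346-fold higher in U251 against a floor of 3 counts over the U87 control group. Its neighbour ADAMTS8 lies 19980 bases away with no protein-coding gene between them, and it had 33 counts over the U251 controls and also 0 in every U87 library, at least 11.5-fold higher in U251. ADAMTS10 followed the same pattern with 92 counts over the U251 controls and 0 in U87, at least 32-fold higher in U251. ADAMTS9 was 2.42 ± 0.15 higher on the log2 scale in U251 controls (adjusted p = 4.5e-08), with 107, 109 and 85.8 CPM against 17.4, 20.5 and 19.3 CPM in U87 controls. ADAMTS4 was 1.87 ± 0.22 higher, with 25.3 ± 3.79 CPM in U251 controls and 7.07 ± 1.54 CPM in U87 controls. These 5 ADAMTS genes and MMP10, MMP15 and MMP28 were the 8 members called higher in U251.

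In the other direction, ADAMTS5 had 2 counts over the U251 controls and 2104 over the U87 controls, a ratio of 1010 in favour of U87 (95% exact interval 278 to 8320). ADAMTS18 had 2 and 683 counts in the same groups, a ratio of 327 (90.2 to 2710), and ADAMTS14 had 2 and 149 counts, a ratio of 71.3 (19.4 to 594). MMP12 had 1 count over the U251 controls and 65 over the U87 controls, a ratio of 62.2 (10.8 to 2500). So ADAMTS5 and ADAMTS15, both proteoglycan-cleaving enzymes, each had nearly all their RNA in one line. ADAMTS1, with 7.8, 9.94 and 7.79 CPM in U251 controls against 122, 138 and 135 CPM in U87 controls, was lower in U251 by a log2 difference of -3.93 ± 0.14 (adjusted p = 4.0e-10).

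Proteins that act with these enzymes were read from 6 lists. Among 14 tested activators, inhibitors and clearance factors of metalloproteinases, 1 fell and none rose in U251, and 2 rose and 5 fell in U87. Beside this and the lists that follow, 4.09% of all tested genes rose and 4.26% fell in U251, and 29.2% rose and 29.2% fell in U87. After GC correction 1 activator or inhibitor rose and 1 fell in U251, and 6 rose and 5 fell in U87. PLAU, the urokinase that generates the MMP-activating plasmin, had 222 ± 8.29 CPM in U251 artesunate and 399.5 ± 13.9 CPM in U251 controls (log2 fold change -0.81 ± 0.08, adjusted p = 0.00019). In U87 PLAU had 38.1 ± 3.83 CPM with artesunate and 82 ± 6.28 CPM in controls (-1.04 ± 0.09, adjusted p = 1.6e-06; -0.58 with the GC correction). PLAU fell in both lines in both fits. SPOCK1, a proteoglycan that modulates MMP activity, rose in U87 with 233 ± 15.3 CPM in artesunate and 156 ± 12.9 CPM in controls (0.66 ± 0.09; 0.32 with the GC correction).

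Of the 12 tested proteoglycan and glycoprotein substrates, none rose and 3 fell in U251, and 2 rose and 5 fell in U87, a called share close to that of all tested genes in U87 (58.3%). Under the GC correction 4 fell in U251, and 1 rose and 5 fell in U87. Versican (VCAN), the large proteoglycan cut by ADAMTS1, ADAMTS4 and ADAMTS5, had 86 ± 5.48 CPM in U251 artesunate and 138 ± 7.26 CPM in U251 controls (-0.64 ± 0.10, adjusted p = 0.0027). In U87 VCAN had 44.3 ± 5.07 CPM with artesunate and 76.1 ± 3.07 CPM in controls (-0.70 ± 0.10, adjusted p = 9.7e-05), so VCAN fell in both lines. The fibrillin FBN2 fell in U251, with 25.9 ± 2.6 CPM in artesunate and 50 ± 4.63 CPM in controls (-0.91 ± 0.11). Tenascin C (TNC) fell in U87, with 642 ± 37.9 CPM in artesunate and 1194 ± 43.6 CPM in controls (-0.82 ± 0.08; -0.34 with the GC correction).

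Of the 10 tested ADAM sheddases, none was called in U251, and 4 rose and 4 fell in U87. In the GC-corrected fit 2 rose in U251, and 2 rose and 4 fell in U87. ADAM17, which sheds growth factors and cytokines and is inhibited by TIMP3, had 157 ± 17 CPM in U87 artesunate and 60.9 ± 3.57 CPM in U87 controls (1.45 ± 0.10, adjusted p = 5.9e-07; 0.73 with the GC correction). ADAM12 had 123 ± 4.98 CPM in U87 artesunate and 194 ± 1.38 CPM in U87 controls (-0.58 ± 0.06). Of 5 tested ADAMTS-like proteins, which lack the protease domain, 3 fell and none rose in U87, and none was called in U251. None of these fell and 1 rose in U87 with the GC correction. BMP1, the procollagen C-proteinase, had 20.7 ± 4.37 CPM in U87 artesunate and 51.2 ± 9.2 CPM in U87 controls (-1.24 ± 0.16, adjusted p = 4.3e-05), which was -0.09 with the GC correction. It was the member called of 2 tested tolloid and meprin genes, and neither was called in U251.

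The 13 tested AP-1, ETS and RUNX factors, families known to bind MMP promoters, gave 5 higher and none lower in U251, and 3 higher and 5 lower in U87. The counts with the GC correction were 4 higher and none lower in U251, and 8 higher and 3 lower in U87. JUN had 303 ± 34.9 CPM in U251 artesunate and 187 ± 7.89 CPM in U251 controls (0.73 ± 0.12, adjusted p = 0.0035), and 171 ± 32.1 CPM in U87 artesunate and 485 ± 20.8 CPM in U87 controls (-1.44 ± 0.12, adjusted p = 1.9e-06; -0.73 with the GC correction). FOSL1 had 131 ± 36.4 CPM in U87 artesunate and 538 ± 24.4 CPM in U87 controls (-1.98 ± 0.15; -0.96 with the GC correction). The ETS factor ETV5 rose in U87, with 199 ± 3.56 CPM in artesunate and 71.3 ± 2.53 CPM in controls (1.56 ± 0.07; 1.53 with the GC correction). JUN rose in U251 and fell in U87 in both fits. Whether any of these factors acted on a member was not tested.

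Summed markers of other cell types differed between artesunate and control libraries in both lines, and their part in the results above was not tested. The 5 fibroblast and pericyte markers summed to 626 to 986 CPM in U87 artesunate against 2175 to 2254 CPM in U87 controls, and to 1253 to 1474 CPM in U251 artesunate against 1487 to 1586 CPM in U251 controls. The lower sum in U87 lay in COL1A1 (114 to 230.0 CPM in artesunate, 976 to 1044 CPM in controls) and COL1A2 (363 to 597 CPM in artesunate, 1059.7 to 1082 CPM in controls), while DCN had 119 to 123 CPM in U87 artesunate against 77 to 82.9 CPM in U87 controls. LUM had 0 counts in all U251 libraries, and DCN had 0 in U251 artesunate and at most 0.123 CPM in U251 controls. The 5 microglia and leukocyte markers summed to 29.9 to 57.8 CPM in U87 artesunate against 75.6 to 119.6 CPM in U87 controls, and to 3.95 to 6.54 CPM in U251 artesunate against 1.08 to 3.19 CPM in U251 controls, with AIF1 at 0 in every library. The 4 endothelial markers summed to 19.9 to 28.1 CPM in U87 artesunate against 38.8 to 43 CPM in U87 controls, and to 59.2 to 66.2 CPM in U251 artesunate against 95.5 to 101 CPM in U251 controls. The sums of these 3 lists did not overlap between artesunate and control libraries in either line, but they rest largely on few genes. The endothelial sum was mostly KDR (57.5 to 64.3 CPM in U251 artesunate), while PECAM1, CDH5 and VWF reached 1.67 CPM at most. CD68 (21.4 to 51.7 CPM in U87 artesunate, 56.1 to 95.4 CPM in U87 controls) and CSF1R carried the leukocyte sum. PTPRC and ITGAM reached 0.248 CPM at most. How often sums of other genes did not overlap was not tested. The 4 neuronal markers summed to 53.2 to 64.4 CPM in U87 artesunate against 34.9 to 50.2 CPM in U87 controls, and overlapped in U251 (138 to 226 CPM in artesunate, 143 to 247 CPM in controls). The 4 epithelial markers summed to 2.3 to 5.36 CPM in U87 artesunate against 6.18 to 7.17 CPM in U87 controls, and overlapped in U251 (19.8 to 26.1 CPM in artesunate, 23.1 to 37.5 CPM in controls).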

How the data were processed

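The study sequenced polyadenylated RNA of 12 libraries. Per the submitters' processing notes, reads were cleaned with fastp, aligned with HISAT2 2.1.0 and quantified with StringTie 1.3.3b, on GRCh38 with Ensembl release 91 models. How whole-number counts were made, and their strandedness, is not given in the sources used here. The deposited table holds the authors' raw counts per gene and their FPKM values, which the authors computed after TMM normalization. Counts were used for all tests, and FPKM for levels between genes and as an alternative.

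The filterByExpr defaults of a minimum count of 10 and a total of 15 kept 17150 of the 58302 genes, tested in R 4.3.3 with edgeR 4.0.16 (TMM, quasi-likelihood, 1 mean per group, common biological coefficient of variation 0.183, Benjamini-Hochberg over all tested genes, called at an adjusted p under 0.05). Each standard error (SE) was taken from the fold change and its F statistic. The alternatives used limma 3.58.1 and DESeq2 1.42.0, FPKM with 1 or 0.1 added before the log, no filter, other scalings, the replicate block, 1 library left out in turn, and an offset by loess on GC content and length from GENCODE 29. The procedure was checked on simulated counts, with the common variation for every gene. It called 7.46% of 1.5-fold and 68.2% of 2-fold changes in U251, and 10.8% and 64.1% in U87. Of 4-fold changes it called 100% in U251 and 95.2% in U87. An uncalled member is therefore not shown to be unchanged. Intervals and floors cover counting error only.

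The members, the gene lists and the marker lists were chosen with earlier results of these data known. Values per library are given by rule for members called in an artesunate comparison or their difference with a group mean of at least 1 FPKM, for the members most different between controls, and for TIMP1, TIMP2, TIMP3, MMP2, MMP9, MMP14 and ADAMTS1. Others named were chosen after their values were seen. 1 overlap between genes is not reported here.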

Additional observations from a re-analysis of the deposited data

Results flagged for a closer look

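For 10 members the effect of artesunate was called different between the lines by the interaction test (edgeR, U251 minus U87). These were 30.3% of the tested members, against 49.4% of all tested genes. ADAMTS5 is counted among them, although 0 counts in U251 artesunate and 2 in U251 controls allow no fold in U251. The adjusted p was 0.00012 for MMP16, 0.00036 for ADAMTS7, 0.0013 for TIMP3, 0.0022 for MMP2 and 0.0055 for MMP17. It was 0.019 for ADAMTS16, 0.026 for TIMP1, 0.029 for MMP15, 0.035 for ADAMTS5 and 0.038 for ADAMTS1. In the fit to counts MMP16 was called in opposite directions in the lines, with a log2 fold change of -0.61 in U251 and 0.46 in U87. With the GC correction it was called lower in both, by -0.43 in U251 and -0.36 in U87. TIMP3 and TIMP1 had log2 fold changes of -0.86 and 0.01 in U251 and of 1.08 and 0.34 in U87. With the GC correction TIMP3, TIMP1 and ADAMTS1 were called in the same direction, and 7 of the 10 were not. The doses differed between the lines, so the line and the dose cannot be told apart in any of these differences.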

How the results depend on the processing

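Library depth limited the 12 untested members and the U251 values of TIMP3, MMP12 and ADAMTS5. With the GC and length correction the U87 log2 fold change turned to 0.13 for ADAMTS7, 0.59 for MMP2, 1.15 for MMP15, -0.36 for MMP16, 0.68 for MMP17 and 0.90 for MMP24, and the difference U251 minus U87 to -0.43 for ADAMTS7, -0.35 for MMP2, -0.96 for MMP14, -0.97 for MMP15 and -0.96 for MMP17. That correction called 0 members higher in U251, 4 lower in U87 and 2 higher for the difference. Fitting only the groups compared gave 2 members higher in U251 and 5 higher between the controls. The count filter was applied anew in that fit. ADAMTS8, MMP10 and MMP28, with 8, 9 and 9 counts in the first U251 control, did not pass it between the controls. No member tested there lost its call. Leaving the count filter out gave 1 lower in U251 and 2 lower for the difference. Over all genes 11461 were called between the controls in the former fit and 7714 for the difference in the latter. The cause of the other changes was not tested. Without 1 library at a time the members called were 1 to 3 lower in U251, 4 to 7 higher and 5 to 9 lower in U87, 4 to 7 higher and 2 to 5 lower for the difference, and 20 to 23 lower between the controls. Over all tested genes, 9029 to 10468 were then called in U87, 7739 to 9314 for the difference and 10315 to 11969 between the controls. Called genes in U251, 1431 in all, were 2328 with DESeq2, 2154 with FPKM + 1, 2892 with only the groups compared, 864 without the filter and 652 to 2582 without 1 library, and those of the difference, 8478 in all, were 5178 with the GC correction. The ADAMTS5 difference had an adjusted p of up to 0.11 without 1 library. Deviations from the group mean correlated at -0.0086 to 0.053 between same-numbered libraries, and at -0.085 to 0.044 between the others. U251 artesunate replicates 1 and 3 and U87 artesunate replicates 1 and 2 correlated best with the control of their own number. U251 artesunate replicate 2 and U87 artesunate replicate 3 did not. These values do not settle whether the numbers pair the libraries, and the numbers are not taken to do so. The replicate block called 5 members higher and 8 lower in U87, where it called 9724 of all genes, against 10005 without the block. MMP1 (0.71, adjusted p = 0.057) and MMP3 (0.45, adjusted p = 0.05) were lost and MMP15 (-0.50, adjusted p = 0.026) was gained. The ADAMTS1 and TIMP1 differences were also lost with the block (adjusted p = 0.055 and 0.051, edgeR).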
